A study of Gallus gallus with 21 samples.

Results

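The W chromosome genes described here are the 44 genes on chromosome W, of 24356 genes in the deposited table, that had at least 10 counts in 5 or more of 21 libraries from the trunk neural tube of chick embryos. They were thus selected on their counts in these libraries. The table listed 124 genes on W, of which 23 had no count in any library and 57 had counts but too few for this rule. The 21 libraries came from 12 embryos of genotype MOXD1 KO (KO below), edited by CRISPR/Cas9, and from 9 embryos of genotype WT (CTRL below); the eggs were bought commercially. Electroporation in ovo reached one side of the neural tube at Hamburger-Hamilton stage 10+/11, so edited cells can be mixed with unedited ones. The sources used here do not give the strain, the stage at collection, the share of cells edited or what the controls received. MOXD1 is related to dopamine beta-hydroxylase, and the study asked what its loss does in neural crest cells of the trunk, which leave the dorsal neural tube, while their lineage is still undecided. Libraries were made from polyadenylated RNA with strand kept. Total counts ran from 16164404 to 21133788 per library.

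In birds females carry a Z and a W chromosome and males carry a pair of Z chromosomes, so the W is passed from mother to daughter. The W is small and rich in repeats and retroviral sequence. Its known protein-coding genes are mostly broadly expressed and have a related copy on the Z, because both chromosomes descend from a pair of autosomes. No W gene is named by symbol here: the table gives Ensembl IDs without symbols, and a RefSeq gene list on another assembly, GRCg7b, shared 0 IDs with it. For the same reason the level of MOXD1 and of marker genes of the neural tube was not analysed here, and no promoter or protein sequence is shown. Genes are given by ID and by their position on W in the GRCg6a assembly.

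W transcripts fell into a present and a nearly absent state. In 15 libraries (7 KO and 8 CTRL) W genes took 0.180% to 0.239% of all counts, which is 31892 to 49032 counts per library. In the other 6 (5 KO and CTRL replicate 9) they took 0.00202% to 0.00455%, which is 378 to 765 counts. The 15 are called libraries with W transcripts below, and the 6 are called libraries with little W signal. A line at 0.1% of counts separates them and belongs to the same rule as the choice of genes, so differences between these sets of libraries are given as a description without a test. The 44 genes held at least 99.5% of all W counts in each of the 15 libraries. In the libraries with W transcripts 36 of the 44 had at least 10 counts in every library. Z genes took 1.83% to 2.30% of counts in the 15 libraries and 2.97% to 3.24% in the other 6, so these ranges did not overlap. The sample titles do not give the sex of the embryos, and its part in these shares was not tested. For the level of a gene among the libraries with W transcripts, fewer cells of a type and less RNA per cell cannot be told apart in bulk tissue.

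The 44 genes were spread over the whole of the annotated W, from base 787 to base 6715914. Each of the 7 stretches of 1 Mb held between 4 and 8 of them, of 10 to 29 annotated genes. The widest stretch without such a gene was 574169 bases, between ENSGALG00000043838 and ENSGALG00000043758. Of the 44, 26 lay on the plus strand and 18 on the minus strand. Exon structure split them into a pair of classes once overlapping exon records were merged: 30 had several exons and 14 had a single exon. Among all 124 annotated W genes, 36 had several exons and 88 a single exon, so 30 of 36 in the first class and 14 of 88 in the second met the count rule. The 30 genes with several exons spanned a median of 51064.5 bases with 2558.5 exon bases. The 14 with a single exon had a median length of 2613 bases. The rule admitted genes down to ENSGALG00000051913, with 10 counts in 5 libraries, and ENSGALG00000049073, with 10 counts in 6. ENSGALG00000048665 and ENSGALG00000053841 reached 10 counts in 4 libraries and stayed outside. Of the 44 genes, 20 overlapped another annotated W gene, 6 of them on the same strand and 14 only on the opposite strand.

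Most W genes were expressed at modest levels per length, and a handful carried most of the W counts. FPKM, counts per kilobase of exon and per 1e+06 library counts, averaged 0.129 to 388 over the 15 libraries with W transcripts, with a median of 3.82 over the 44 genes. The median over all 13784 genes tested in these libraries was 10.2 FPKM, and 8 of the 44 W genes lay above it. The tested genes passed a filter on low counts that 4 of the 44 did not pass, so the sets differ in selection. In CPM, the same without length, 20 genes stood at 10 or more, 18 between 1 and 10 and 6 under 1. The 5 genes with the most CPM made up 75.6% of the summed CPM of the 44.

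The highest level belonged to ENSGALG00000035998, with 6 exons on the plus strand of W at 1840623 to 1896773. Its CPM ran from 738 over a median of 822 to 1265 in the 7 KO libraries with W transcripts, and from 631 over a median of 855 to 951 in the 8 CTRL libraries. KO replicates 4 and 6 were the highest of the 15, at 1265 and 1179 CPM, and the groups overlapped. Its level of 388 ± 74.8 FPKM (SD, n = 15) lay at percentile 99.0 of the genes tested. This gene alone held 32.8% to 50.1% of all W counts in a library. Without it, the W share ran from 0.108% to 0.128% in KO libraries and from 0.109% to 0.143% in CTRL libraries. In the 6 libraries with little W signal it had 8 counts in all, 6 of them in KO replicate 3 and 0 in KO replicates 9 and 10 and CTRL replicate 9.

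The genes with the highest and second highest FPKM, and the fifth, stood side by side. ENSGALG00000048286, with 5 exons on the minus strand at 1871809 to 1874957, lies within the span of ENSGALG00000035998 on the opposite strand and averaged 131 ± 12.0 FPKM (SD, n = 15). It had 36.2 to 47.1 CPM in KO libraries, with a median of 45.5, and 37.3 to 47.4 CPM in CTRL libraries, with a median of 42.3, so the groups overlapped. Its CPM was 3.72% to 6.23% of that of the gene it lies within; counting used strand, and whether any of its counts came from that gene's strand was not tested. ENSGALG00000041221, a single exon of 796 bases on the minus strand at 1839719 to 1840514, lies 108 bases from the start of ENSGALG00000035998 and points away from it. It averaged 71.6 ± 22.5 FPKM (SD, n = 15), with 34.9 over a median of 57.5 to 96.9 CPM in KO libraries and 34.2 over a median of 49.2 to 78.5 CPM in CTRL libraries. Both neighbours had 0 counts in all 6 libraries with little W signal. The stretch from 1 to 2 Mb, which holds these 3 genes, carried 56.2% of the summed CPM of the 44. ENSGALG00000035998 alone made up 41.4% of that sum. ENSGALG00000043758, in the same stretch but not one of these 3, averaged 203 CPM, more than either neighbour. The next highest were the stretches from 4 to 5 Mb with 14.0% and from 3 to 4 Mb with 13.3%.

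The order of levels below ENSGALG00000048286 was close. ENSGALG00000040086, with 18 exons on the minus strand at 4704235 to 4724025, averaged 88.7 ± 14.8 FPKM, and ENSGALG00000033705, with 18 exons on the minus strand at 3607613 to 3662450, averaged 77.1 ± 6.63 FPKM (SD, n = 15 each). ENSGALG00000040086 had 139 to 233 CPM in KO libraries, with a median of 204, and 144 to 249 CPM in CTRL libraries, with a median of 201; it overlaps another annotated gene on its own strand, so its counts are uncertain. The ranges over libraries of these genes and of ENSGALG00000041221 overlapped one another (61.8 to 111, 64.4 to 90.8 and 43.0 to 122 FPKM). The top gene did not overlap the others: its lowest library had 283 FPKM and the highest library of ENSGALG00000048286 had 145. ENSGALG00000048286 in turn overlapped only ENSGALG00000040086 and ENSGALG00000041221 by range over libraries, as its lowest library had 111 FPKM. Within each of the 15 libraries ENSGALG00000048286 was higher than both of these genes. The lowest levels were those of ENSGALG00000049351 and ENSGALG00000054257, both single exons of 2784 bases, at 0.129 ± 0.0706 and 0.151 ± 0.0865 FPKM (SD, n = 15 each). Single-exon genes had a median of 1.05 FPKM and genes with several exons a median of 5.14 FPKM.

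**Figure D1:**
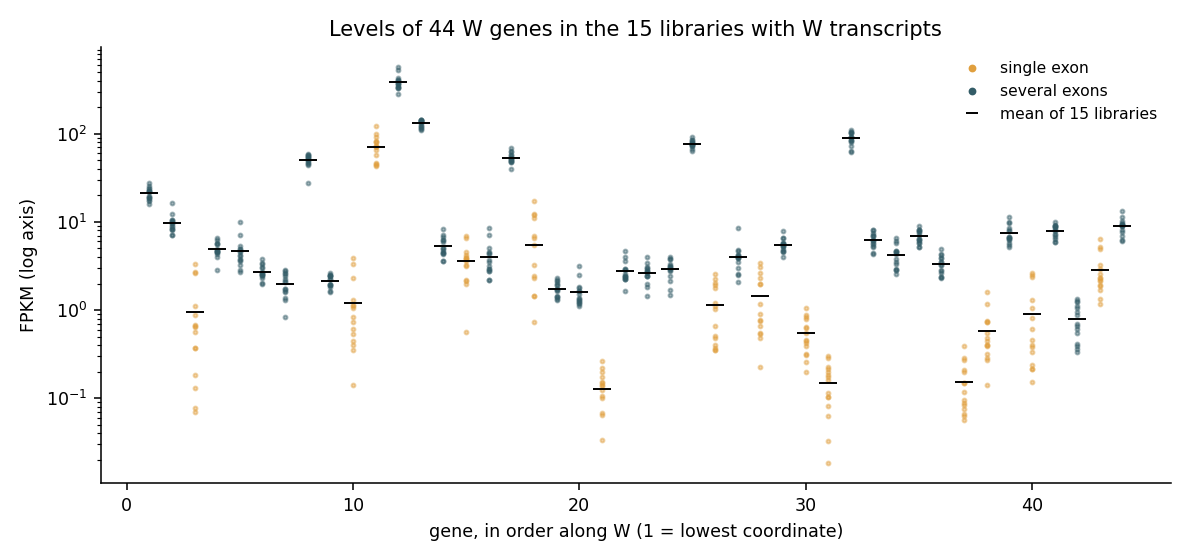
FPKM (log axis) of the 44 W genes in the 15 libraries with W transcripts, against their order along W; each point is a library, bars are means, colours separate single-exon genes from genes with several exons, and libraries at 0 cannot be drawn on this axis. The peak at genes 11 to 13 is the neighbourhood of ENSGALG00000035998 (388 FPKM), and the lowest means are single-exon genes. Gene 13 has only 327 exon bases, so its place is high per length and not in counts.

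Spread between the 15 libraries was wider among single-exon genes. The coefficient of variation (CV, SD over mean) of CPM had a median of 0.268 over the 44 genes, beside 0.276 over all 13784 genes tested. Of the 44, 4 did not pass the filter on low counts of the tested genes. Genes with several exons had a median CV of 0.201, from 0.0860 to 0.446, and single-exon genes a median of 0.653, from 0.315 to 1.09. The classes also differed in level, with median means of 16.3 CPM for several exons and 2.40 CPM for a single exon, and counting noise alone would give a median CV of 0.0579 in the first class and 0.149 in the second. Between 2 and 5 CPM, the 6 single-exon W genes had a median CV of 0.822 and the 8 W genes with several exons one of 0.238. In the same range the median was 0.465 over all 1354 tested genes and 0.410 over 80 single-exon genes off W, of which 18 had a CV of at least 0.6. At a mean of 5 CPM or more, the steadiest W genes were ENSGALG00000033705 (CV 0.0860), ENSGALG00000048286 (CV 0.0915) and ENSGALG00000040263 (CV 0.136). ENSGALG00000040263 overlaps other annotated genes on its own strand, so its counts are uncertain. ENSGALG00000033705 had 229 to 243 CPM in KO libraries, with a median of 238, and 201 to 283 CPM in CTRL libraries, with a median of 251.

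The most variable genes at that level were ENSGALG00000046681, ENSGALG00000030382 and ENSGALG00000041221. ENSGALG00000046681, a single exon of 2970 bases at 2219751 to 2222720 on the plus strand, had a CV of 0.447. It ran from 1.68 over a median of 11.3 to 13.7 CPM in KO libraries, where KO replicate 8 was the lowest. In CTRL libraries it ran from 5.88 over a median of 11.1 to 20.3 CPM. Without CTRL replicate 1 and KO replicate 8 the CV of ENSGALG00000046681 was 0.353, below the 0.375 of ENSGALG00000030382. ENSGALG00000030382, with 4 exons at 3970486 to 4106227 on the plus strand, had a CV of 0.369. It overlaps another annotated gene on its own strand, so its counts are uncertain. It ran from 6.49 over a median of 12.3 to 13.4 CPM in KO libraries and from 9.29 over a median of 12.8 to 26.4 CPM in CTRL libraries. Its highest library was CTRL replicate 3, which was also the highest of the 15 for 11 of the 44 genes. A drop in a single library was seen for ENSGALG00000043758, chosen after its values were seen: it had 178 to 235 CPM in KO libraries and 203 to 230 CPM in 7 CTRL libraries, but 111 CPM in CTRL replicate 5.

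**Figure D2:**
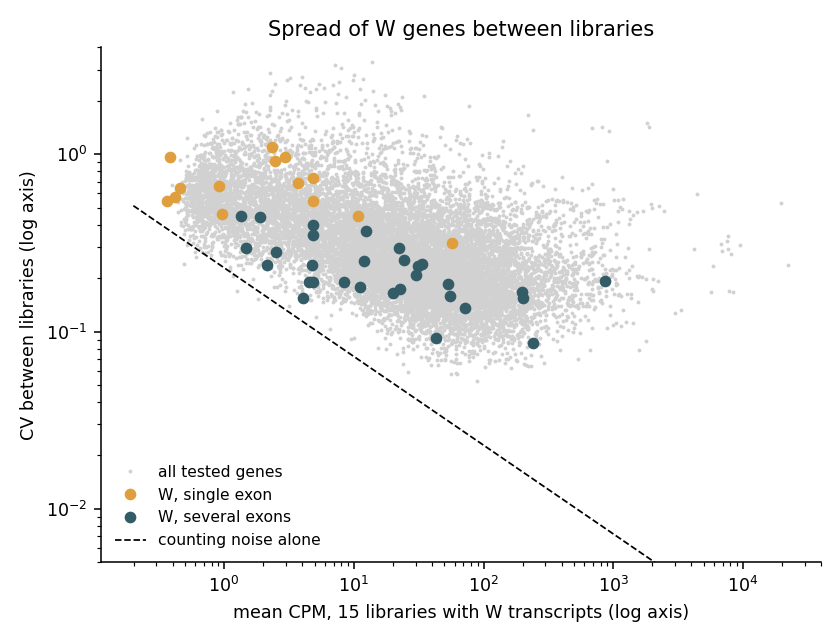
Coefficient of variation of CPM over the 15 libraries with W transcripts against mean CPM (both log axes) for all 13784 tested genes (grey) and the 44 W genes (coloured by exon class); the dashed line is counting noise alone. Single-exon W genes (median CV 0.653) mostly lie above W genes with several exons (median CV 0.201).

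A set of 5 single-exon genes, far apart on W, was high in the same libraries. They are the W genes whose mean reached 2 CPM and whose CV reached 0.6, a choice made after their values were seen, so they are described without a test. All 5 had means between 2 and 5 CPM. In that range 5 of 6 single-exon W genes and 0 of 8 W genes with several exons reached that CV. So did 381 (28.1%) of the 1354 tested genes of this range, and 18 of 80 single-exon genes off W. Such a CV is thus not particular to W. No W gene with several exons reached it at any level. In order along W they are ENSGALG00000047839 (plus strand, 104450 to 106891), ENSGALG00000047682 (minus strand, 1487942 to 1489963), ENSGALG00000049069 (plus strand, 3669295 to 3672564), ENSGALG00000049219 (plus strand, 4116596 to 4119982) and ENSGALG00000053933 (minus strand, 5967073 to 5970279). Their exon lengths ran from 2022 to 3387 bases and their means from 2.35 to 4.86 CPM. Their CVs were 0.686 to 1.09, where counting noise alone would give 0.105 to 0.151. ENSGALG00000047839, ENSGALG00000047682 and ENSGALG00000053933 lie within the spans of W genes with several exons on the opposite strand. Those are, in this order, ENSGALG00000048542, ENSGALG00000030707 and ENSGALG00000040704. Counting used strand, and whether counts of the enclosed genes came from the other strand was not tested. ENSGALG00000049069 and ENSGALG00000049219 overlap no other annotated W gene.

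KO replicates 11 and 12 and CTRL replicate 4 were the 3 highest of the 15 libraries for 4 of the 5 genes. ENSGALG00000047839 had 8.09 and 6.61 CPM in KO replicates 11 and 12 and 0.171 to 1.57 CPM in the other 5 KO libraries, and it had 6.51 CPM in CTRL replicate 4 and 0.317 to 2.73 CPM in the other 7 CTRL libraries. ENSGALG00000053933 had 7.99 and 7.56 CPM in KO replicates 11 and 12 and 0.685 to 1.96 CPM in the other KO libraries, and it had 8.42 CPM in CTRL replicate 4 and 0.497 to 4.17 CPM in the other CTRL libraries. For ENSGALG00000049069, CTRL replicate 5 with 7.33 CPM came between CTRL replicate 4 with 8.36 CPM and the pair of KO libraries, with 6.56 CPM in KO replicate 12 and 6.34 CPM in KO replicate 11. ENSGALG00000047682 ran from 0.286 over a median of 1.24 to 7.88 CPM in KO libraries and from 0.714 over a median of 2.18 to 4.72 CPM in CTRL libraries. ENSGALG00000049219 ran from 1.63 over a median of 2.58 to 10.4 CPM in KO libraries and from 0.762 over a median of 5.33 to 11.7 CPM in CTRL libraries. Both groups thus held high and low libraries, and they overlapped for each of the 5 genes.

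Summed over the 5 genes the level was 38.1 and 39.0 CPM in KO replicates 11 and 12 and 39.7 CPM in CTRL replicate 4, beside 4.28 to 23.2 CPM in the other 12 libraries with W transcripts. The highest library of a gene stood 7.32 to 47.2 times above its lowest. Over the 15 libraries, the 10 pairs among these genes had Spearman rho of 0.771 to 0.925. The 435 pairs of W genes with several exons had a median rho of 0.132. These points share libraries, depth and scaling. The 5 genes were chosen for a CV of at least 0.6, whereas the CVs of genes with several exons reached at most 0.446. These sets are not alike in selection, so nothing is read from the difference in rho. The 3 high libraries were also the 3 lowest of the 15 for W genes with several exons. The median deviation of those 30 genes from their own medians over the 15, on the log2(CPM + 0.1) scale, was -0.14 and -0.16 in KO replicates 11 and 12 and -0.12 in CTRL replicate 4, beside -0.05 to 0.31 in the other 12. KO replicate 12 had the lowest W share of the 15 (0.180%). Mitochondrial shares were 8.03% and 8.00% in KO replicates 11 and 12 and 11.0% in CTRL replicate 4, beside 6.68% to 14.3% in the other 12. Tested single-exon genes off W summed to 6268 and 6860 CPM in these KO libraries and to 6894 CPM in CTRL replicate 4, beside 5800 to 7059 CPM in the other 12. CTRL replicate 4 had the lowest total count of the 21 (16164404) and the most genes at 1 CPM or more (12979). Whether any of these measures plays a part in the pattern was not tested.

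**Figure D3:**
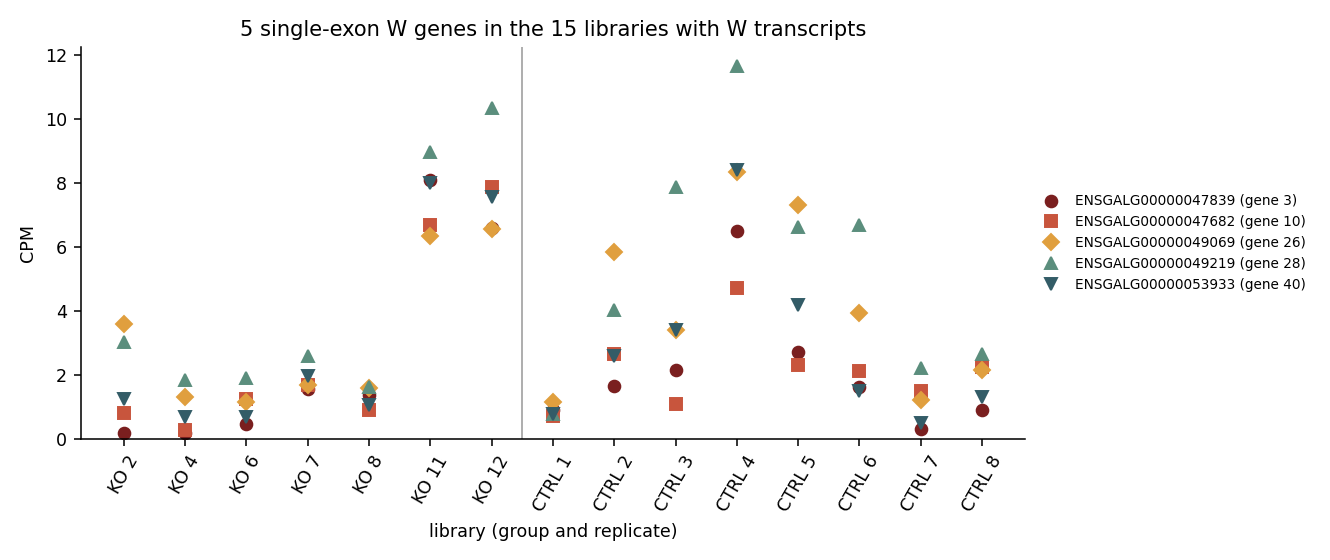
CPM of 5 single-exon W genes in each of the 15 libraries with W transcripts, 7 KO libraries on the left and 8 CTRL libraries on the right of the line; symbols mark genes, numbered by their order along W. KO replicates 11 and 12 and CTRL replicate 4 are high for all 5, between 4.72 and 11.7 CPM.

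In the 6 libraries with little W signal, most W genes had few or no counts and some kept theirs. A gene's kept share is its mean CPM in these 6 libraries as a percentage of its mean CPM in the 15 with W transcripts. The kept share was at least 10% for 10 of the 44 genes, between 1% and 10% for 7 and at most 1% for 27, and 10 of those 27 had 0 counts in all 6 libraries. Among the 13784 genes tested, 0.254% (35 genes) had a kept share under 10%, and most of these belonged to the 44. Nothing is read from this background because the same contrast chose the genes. For 33 of the 44 genes every library with W transcripts lay above every library with little W signal, and for 11 the libraries overlapped. Of the tested genes, 0.268% (37 genes) were separated in this way, and most of these belonged to the 44. The 10 genes with a kept share of at least 10% comprised 8 of the 14 single-exon genes and 2 of the 30 with several exons. They held 0.585% to 2.70% of the W counts in a library with W transcripts, and 65.8% to 77.4% of those in a library with little W signal.

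ENSGALG00000047434 held the largest share of the W counts in each of the 6 libraries with little W signal. It has 3 exons on the minus strand at 3570685 to 3580610. Its CPM ran from 6.11 over a median of 12.4 to 16.6 in the 15 libraries with W transcripts, and from 9.98 over a median of 15.3 to 24.5 in the 6 libraries with little W signal, where it had 182 to 390 counts. KO replicate 10 and CTRL replicate 9 were the highest of those 6, at 24.5 and 23.2 CPM, and the sets overlapped. It held 0.251% to 0.860% of the W counts in a library with W transcripts, and 42.6% to 57.6% in a library with little W signal.

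ENSGALG00000041500, with 4 exons on the minus strand at 2356561 to 2358300, also kept its level, at fewer counts. Its CPM ran from 1.04 over a median of 1.68 to 4.03 in the libraries with W transcripts, and from 1.72 over a median of 2.80 to 3.52 in those with little W signal. The ratio of means, little W signal over W transcripts, was 1.37 for ENSGALG00000047434 and 1.47 for ENSGALG00000041500. Over 609 tested Z genes the same ratio had a median of 1.44, with quartiles at 1.16 and 1.75, and over 13135 tested genes on neither Z nor W it had a median of 0.965. Whether reads of a related Z gene were counted at these W genes was not tested.

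Of the 8 single-exon genes that kept at least 10%, 4 averaged under 1 CPM in both sets of libraries. ENSGALG00000054257, ENSGALG00000049351 and ENSGALG00000049073 had 0.419, 0.360 and 0.460 CPM on average in libraries with W transcripts, and 0.796, 0.570 and 0.358 CPM in those with little W signal. The mean of 0.796 CPM rests on CTRL replicate 9, with 51 counts and 3.03 CPM, where the 5 KO libraries had 1 to 14 counts; without that library the kept share of ENSGALG00000054257 was 83.0% in place of 190%. For ENSGALG00000049351 the kept share was 117% without CTRL replicate 9, and 158% with it. That gene reached 10 counts in 7 libraries, and without those with little W signal it would have missed the count rule. Among libraries with W transcripts it reached 10 counts only in KO replicates 7 and 12 and CTRL replicates 6 and 8. It had 11, 12 and 22 counts in KO replicates 5 and 10 and CTRL replicate 9, so its kept share is partly set by the selection. ENSGALG00000045131, at 4272540 to 4274285, kept 35.2% (29.8% without CTRL replicate 9), with 2 to 10 counts a library. The other 4 genes above 10% belonged to the set of 5 that varied together, which kept 8.39% to 25.3%. Their means over the 15 libraries include KO replicates 11 and 12 and CTRL replicate 4, where these genes were high. ENSGALG00000047839, for example, had a mean of 2.35 CPM and a median of 1.57 CPM. Against the other libraries with W transcripts the kept shares of the set would be larger, so which of them pass 10% rests partly on these libraries. With KO libraries alone, 5 with little W signal against 7 with W transcripts, 8 genes kept at least 10%.

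Residues differed between abundant genes with several exons. ENSGALG00000033705 had 22 to 49 counts in each of the 6 libraries with little W signal, a kept share of 0.787%. ENSGALG00000043758 had 16 to 31 counts, a kept share of 0.593%. In contrast, ENSGALG00000040780 had 0 to 2 counts in these libraries, a kept share of 0.110%, and ENSGALG00000040704 had 1 count in all 6 together. ENSGALG00000048286 had 0 counts in all 6, and the top gene ENSGALG00000035998, with 0 counts in 3 of the 6, kept 0.00753%. ENSGALG00000043758, ENSGALG00000040780 and ENSGALG00000040704 were chosen for this comparison after their values were seen.

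**Figure D4:**
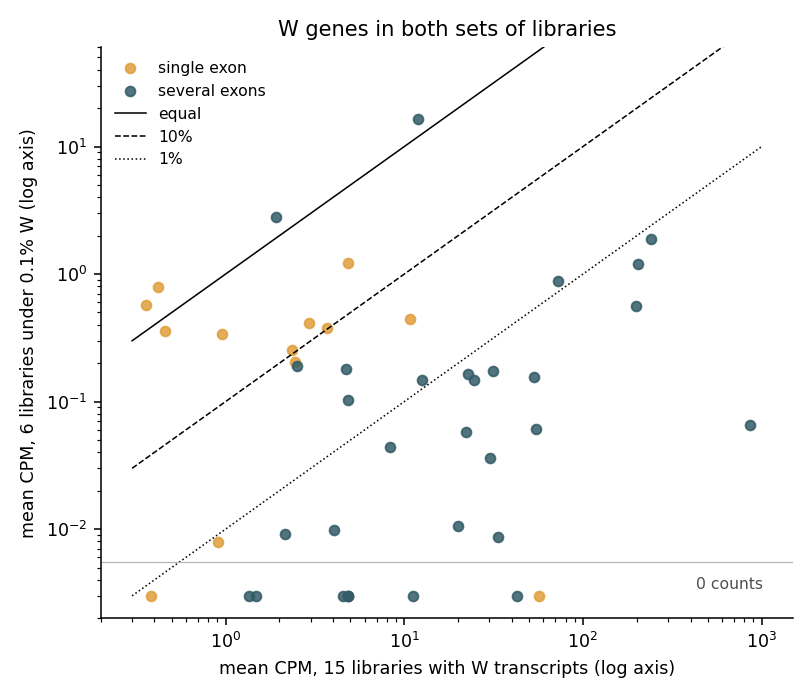
Mean CPM of the 44 W genes in the 6 libraries with little W signal (vertical) against their mean CPM in the 15 libraries with W transcripts (horizontal), both log axes; lines mark equal levels, 10% and 1%, genes with 0 counts are drawn in the lowest band, and colours separate exon classes. Most genes with several exons lie below the 1% line. ENSGALG00000047434 and ENSGALG00000041500 lie above the line of equal levels, as do the single-exon genes ENSGALG00000054257 and ENSGALG00000049351, both under 1 CPM.

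Outside W, a pattern like that of W genes was rare. Genes whose lowest CPM in the 15 libraries with W transcripts exceeded 5 times their highest CPM in the other 6, and whose median in the 15 reached 1 CPM, numbered 29 on W and 1 elsewhere, among 12752 genes with such a median. The one elsewhere was ENSGALG00000051419, with 6 exons on the minus strand of chromosome Z at 27317307 to 27383989. It ran from 11.0 over a median of 16.9 to 30.8 CPM in the libraries with W transcripts and had 0 counts in the 6 with little W signal. No gene on an unplaced scaffold met this criterion.

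Targeting of MOXD1 went with no called change of a W gene. Within the 15 libraries with W transcripts, KO (n = 7) against CTRL (n = 8), edgeR's quasi-likelihood test fitted to all genes called 0 of the 40 W genes tested and 0 of all 13784 genes (0%) at an adjusted p under 0.05. The other 4 W genes did not pass the filter on low counts. At an unadjusted p under 0.05, 2 W genes were lower and 0 higher in KO, where 3.93% of all genes tested were lower (542 genes) and 1.83% higher (252 genes). DESeq2 also called 0 W genes, and it called 1 gene of 20681 elsewhere. At its unadjusted p under 0.05 there were 2 W genes, where 1158 of all 20681 genes tested had such a p. Of the 40 W genes, 32 had a fitted log2 change below 0 and 8 above, with a median of -0.13 and a range from -0.70 to 0.36, while the median over all genes was -0.011 and 48.0% of them lay above 0. The median standard error of a W gene was 0.18. Among the 30 genes with several exons 27 lay below 0 (median -0.13), and among the 10 tested single-exon genes 5 did (median -0.12). With the title replicate number as a block this split turned. In that fit 19 of 30 genes with several exons lay below 0 (median -0.07), and 9 of 10 single-exon genes did (median -0.72). Only replicates 2, 4, 6, 7 and 8 occur in both groups among these 15 libraries. KO replicates 11 and 12 and CTRL replicates 1, 3 and 5 thus do not inform the change in the block fit, which rests on fewer libraries. These genes share their libraries, so the counts of signs are a description.

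The W genes with the smallest p are given for their values. ENSGALG00000034905, with 5 exons on the plus strand at 5302803 to 5316624, had 3.31 to 4.93 CPM in KO libraries, with a median of 3.98, and 3.38 to 6.96 CPM in CTRL libraries, with a median of 5.57. The groups overlapped, and the log2 change was -0.44 (edgeR p = 0.0219, SE 0.18, adjusted p = 0.848). ENSGALG00000047434, a gene that kept its level in libraries with little W signal, had 6.11 to 13.03 CPM in KO libraries, with a median of 11.4. In CTRL libraries it had 9.99 to 16.6 CPM, with a median of 13.4 (log2 change -0.42, edgeR p = 0.0388, SE 0.19, adjusted p = 0.848). In the other direction, ENSGALG00000035998 differed by 0.13 on the log2 scale (SE 0.14, edgeR adjusted p = 0.925) and ENSGALG00000041221 by 0.21 (SE 0.22, edgeR adjusted p = 0.925). For 32 of the 40 genes (80.0%) the whole approximate 95% interval stayed under a 2-fold change up or down, as it did for 78.5% of all genes tested. This interval used a normal quantile of the standard error, so it is somewhat narrower than one matched to the F test. No W gene had KO and CTRL ranges that did not overlap (0.0218% of tested genes had such ranges).

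Over all 21 libraries, KO (n = 12) against CTRL (n = 9), the same test called 0 of 40 W genes and 0 of 13809 genes (0%), and DESeq2 called 0. At an unadjusted p under 0.05 there were 0 W genes, where 4.5% of all genes tested were lower in KO and 2.58% higher. In that fit 39 of the 40 W genes had a log2 change below 0, with a median of -0.71. With the state of W transcripts (at least 0.1% of counts or less) as a further term, the median was -0.13. Little W signal was found in 5 of the 12 KO libraries and in 1 of the 9 CTRL libraries. The exception in sign was ENSGALG00000041500, described above for its kept share of 147%. All p-values measure the spread between embryos as labelled.

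**Figure D5:**
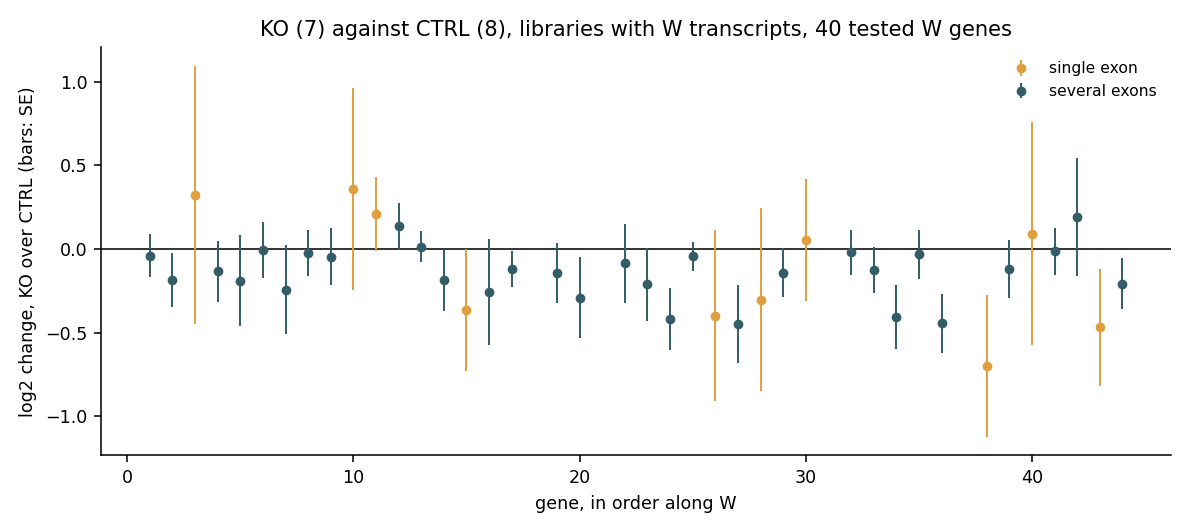
log2 change, KO over CTRL, of the 40 tested W genes in order along W, from the 7 KO and 8 CTRL libraries with W transcripts; points are edgeR estimates, bars are standard errors and colours separate exon classes. Most points lie just below 0, 0 genes passed the threshold, and single-exon genes have the longest bars.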

How the data were processed

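Raw counts, read pairs counted as 1 fragment each, were deposited for every gene in 21 libraries; the file headers name featureCounts 2.0.1, run by the authors over exons of the Ensembl release 101 annotation of GRCg6a. Counting used the reverse strand and no option for multi-mapping or multi-overlapping reads, so reads shared by near-identical copies or by genes overlapping on 1 strand were left out. Of the 44 W genes, 6 overlap another W gene on the same strand, so their counts are uncertain. They are ENSGALG00000040780, ENSGALG00000040263, ENSGALG00000030382, ENSGALG00000038064, ENSGALG00000040086 and ENSGALG00000035780. Exon length in bases came from the same table. Per the submitters' processing notes STAR was used on GRCg6a, with settings the sources used here do not give. There were 0 further value columns.

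Groups and replicate numbers came from the sample titles. CPM and FPKM used total counts scaled by TMM factors. Groups were compared with edgeR 4.0.16 (R 4.3.3; filterByExpr, TMM, quasi-likelihood F test, 2-sided, Benjamini-Hochberg over all genes tested, threshold 0.05), and with DESeq2 1.42.0 as an alternative; standard errors were derived from the coefficient and its F value. Libraries of a group differed beyond sampling noise (lowest chi-square per degree of freedom 29.2 over 102 pairs).

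The W genes, their rule and the lists were chosen with earlier results of these data known. Named genes were the 5 highest and 2 lowest by FPKM, the 6 with the highest kept share, the 3 most and 3 least variable with a mean of at least 5 CPM, the 2 with the smallest p in each direction, and those at the edge of the count rule. Planned marker lists by symbol could not be used, as IDs had no symbols. Counts are not known to be independent molecules, so counting noise is a lower bound on error.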

Additional observations from a re-analysis of the deposited data

Results flagged for a closer look

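There were 47 sets of values examined, 1 for each named gene or share and group. In 5 of them a single library lay far from the rest of its group. Chance flags about 1 in 20 such sets when they are not chosen by their values. Some genes here were named for a high CV, and the sets were not independent, so that rate is no yardstick for these 5. CTRL replicate 3 lay far above the other 7 CTRL libraries with W transcripts for ENSGALG00000030382 (26.4 CPM, others 9.29 to 14.9) and for ENSGALG00000041500 (4.03 CPM, others 1.33 to 2.42). CTRL replicate 4 lay far above them for ENSGALG00000047839 (6.51 CPM, others 0.317 to 2.73) and for ENSGALG00000053933 (8.42 CPM, others 0.497 to 4.17), both of the set of 5 single-exon genes that varied together. Among all 9 CTRL libraries, CTRL replicate 9 lay far below the other 8 in W share (0.00455%, others 0.184% to 0.234%). W share is the value that split the libraries, so this flag was known beforehand and is no separate result. The KO libraries with W transcripts gave no such case, although KO replicates 11 and 12 stood together as high for the set of 5.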

How the results depend on the processing

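No W gene passed the threshold in any of the 5 alternative fits within the libraries with W transcripts or the 6 over all libraries (other size factors, no filter, DESeq2, the replicate block, without CTRL replicate 1 and KO replicate 8 and, over all libraries, the state of W transcripts as a term). The median log2 change of W genes within the libraries with W transcripts was -0.13, and -0.11 with the replicate block. Over all libraries it was -0.71, -1.62 with the replicate block and -0.13 with the state of W transcripts as a term. The block was the one fit there with more than 1 W gene at an unadjusted p under 0.05 (8 genes). In that fit 1517 of all 13809 genes tested had such a p, 830 of them lower in KO. Within the libraries with W transcripts there were 2 such W genes, where 794 of all 13784 genes tested had such a p. With the replicate block there was 1 W gene (495 of all 13784 genes). Without CTRL replicate 1 and KO replicate 8 there was also 1 (527 of all 13778 genes). KO and CTRL libraries with the same title number correlated in their deviations by -0.427 to 0.435, with 6 of 9 pairs over 0.1. Of 9 KO libraries, 3 correlated best with their own number. The title numbers were not taken to pair embryos. The submitters' library names give other numbers for some libraries, and pairing by those names was not tested. The replicate block used title numbers, and only numbers that occur in both groups inform its change. Within the libraries with W transcripts these are 2, 4, 6, 7 and 8. Over all libraries, numbers 1, 3 and 5 set a KO library with little W signal against a CTRL library with W transcripts. No number did the reverse. For these numbers, group and state of W transcripts cannot be told apart in the block fit. Among single-exon genes tested within the libraries with W transcripts, 5 of 10 had a change below 0, and 9 of 10 with the replicate block; without the block, 25 to 27 of 30 genes with several exons did, and 19 with it. The 4 genes named by p kept their direction in each of the 5 fits (adjusted p 0.567 to 1.00). The number of W genes that meet the rule was 55 at 5 counts and 40 at 20 counts. The number that kept counts was 12 at a share of 5% and 7 at 25%. Leaving out CTRL replicate 1 and KO replicate 8, which earlier work on these data found apart, was added for these 2 counts after seeing the data and gave 43 genes and 9 genes. The set of 5 variable genes was the same 5 on total counts and without those libraries. At under 1 CPM, levels rest on few counts and shares kept are uncertain.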
